A study of Sus scrofa with 15 samples.

Results

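Transcript levels of 10 genes for the methylation of lysine 4 of histone H3 (H3K4) were examined in pig somatic cell nuclear transfer (SCNT) embryos and their donor cells. The genes are the methyltransferases *KMT2A*, *KMT2B*, *KMT2C*, *KMT2D*, *SETD1A* and *SETD1B*, the shared complex subunits *WDR5* and *ASH2L*, and the demethylases *KDM5A* and *KDM5B*. They were chosen by name and matched by gene symbol in the deposited table, where each had 1 of the 28224 entries for known genes. RNA-seq was available for 5 groups of 3 libraries. PFF are primary porcine fetal fibroblasts at passages 2 to 5, the cell type used as nuclear donor. SCNT4c and SCNT8c are untreated cloned embryos at the 4-cell and 8-cell stage. SCNT4c-KG are 4-cell clones injected with *KDM4A* mRNA (1000 ng/µl, 5 h after activation) and kept for 48 h in 0.1 µM GSK126, which blocks EZH2, the enzyme that methylates H3K27. SCNT4c-TDG are 4-cell clones made from donor cells with a doxycycline-inducible *TDG*, which encodes a DNA glycosylase of active DNA demethylation, and given 500 ng/ml doxycycline from 40 to 72 h. Each embryo library came from a pool of 30 embryos. In SCNT4c-KG the injection and the inhibitor, and in SCNT4c-TDG the donor line, doxycycline and *TDG*, cannot be told apart, because no library with 1 of them alone was analysed here. The sample records of SCNT4c-TDG are numbered apart from those of all other groups, and the labels do not say what else may differ. Any such difference cannot be told apart from the treatment. Columns of the table were assigned to groups by matching their names to the sample titles. For the SCNT4c and SCNT4c-KG libraries the labels conflict, because the descriptions of the SCNT4c-KG samples carry the names of the SCNT4c columns, although the table also has columns named for SCNT4c-KG. The assignment of these 2 groups therefore rests on titles and column names, and the *KDM4A* level in each is given below. Since titles and descriptions also number the SCNT4c libraries differently, these are called a, b and c.

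H3K4 methylation marks promoters and enhancers of active genes. The catalytic KMT2 and SETD1 proteins work in complexes built on a common core, in which WDR5 and ASH2L, with RBBP5 and DPY30, stimulate the enzyme. SETD1A and SETD1B complexes make most of the trimethylation at promoters, KMT2A and KMT2B act at selected CpG-rich promoters, and KMT2C and KMT2D mainly add monomethylation at enhancers. The KDM5 proteins remove di- and trimethylation from H3K4. In mammalian oocytes and cleavage embryos the distribution of H3K4me3 is rebuilt around the time of genome activation, and KDM5 enzymes take part in this.

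The annotated 5′ flanks of the members differed in CpG content. In the 250 bases before the annotated start (RefSeq annotation of Sscrofa11.1), *SETD1B* had 41 CpG dinucleotides, *KMT2A* 38, *KMT2C* 37, *KMT2B* 33, *WDR5* 26, *KDM5B* 24, *ASH2L* 15, *KDM5A* 13, *KMT2D* 7 and *SETD1A* 1, against a median of 12 over 19556 promoters of protein-coding genes. The GC box (GGGCGG on either strand) was found in 8 of the 10 and in 45.9% of all 19556. The flanks of the 3 members that passed a test between embryo groups are shown here, 5′ to 3′ on the strand of the gene, with GC boxes in capitals.
*KMT2A*, chr9:45743316-45743565, plus strand: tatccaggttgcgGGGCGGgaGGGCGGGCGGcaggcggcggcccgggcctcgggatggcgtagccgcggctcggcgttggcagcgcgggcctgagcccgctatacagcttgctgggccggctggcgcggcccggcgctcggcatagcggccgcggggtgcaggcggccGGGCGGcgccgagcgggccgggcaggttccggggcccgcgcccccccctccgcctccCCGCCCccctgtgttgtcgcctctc
*WDR5*, chr1:273560024-273560273, plus strand: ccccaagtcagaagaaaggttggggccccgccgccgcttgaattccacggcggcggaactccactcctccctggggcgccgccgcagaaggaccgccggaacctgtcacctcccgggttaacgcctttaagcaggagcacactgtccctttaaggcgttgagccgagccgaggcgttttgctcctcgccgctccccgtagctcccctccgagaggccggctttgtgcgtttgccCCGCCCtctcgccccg
*KDM5A*, chr5:67716144-67716393, minus strand: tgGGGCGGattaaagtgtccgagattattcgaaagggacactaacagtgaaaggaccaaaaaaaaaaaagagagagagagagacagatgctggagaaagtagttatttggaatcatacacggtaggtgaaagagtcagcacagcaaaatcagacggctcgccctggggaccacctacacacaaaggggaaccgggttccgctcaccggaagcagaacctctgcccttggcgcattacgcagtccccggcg
*KMT2A* held 5 GC boxes, some overlapping, and *WDR5* and *KDM5A* held 1 each. A match of letters is not a bound site, and no binding or methylation at these flanks was analysed here.

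Recovered reads ranged from 12354649 to 22868038 per library, with the lowest totals in SCNT4c-KG (12354649 to 15390472). The summed signal of 10 fibroblast markers was 3836027 to 4069269 in PFF and 1612 to 5448 in the embryo libraries, where *COL5A1* and *FBN1* were at 0. The summed signal of 10 oocyte and cleavage embryo markers was 80230.3 to 102666 in SCNT4c, 28103 to 54144 in SCNT4c-KG, 10464 to 16766 in SCNT4c-TDG, 38869 to 48357 in SCNT8c and 11.5 to 23.8 in PFF. Of these markers, 7 were above 0 in SCNT4c, SCNT4c-TDG and SCNT8c and 6 in SCNT4c-KG, while *BMP15*, *GDF9* and *MOS* were at 0 in all groups. The summed signal of 7 cumulus cell markers, of which *INHBA* had 2 entries that were added, was 1372 to 1775 in SCNT4c, 766 to 861 in SCNT4c-KG, 457 to 575 in SCNT4c-TDG, 1328 to 1898 in SCNT8c and 526 to 606 in PFF, with 4 above 0 in SCNT4c, SCNT4c-TDG and SCNT8c, 3 in SCNT4c-KG and 5 in PFF. *AMH*, *FOXL2* and *PTX3* were at 0 in all embryo groups. The oocyte sums moved with every comparison below and the cumulus sums with all but that of SCNT8c, and the part of these or the fibroblast sums in the members' differences was not tested. *KDM4A*, whose mRNA was injected in SCNT4c-KG, was at 194 ± 103 (SD, n = 3) in the columns named for SCNT4c and 1448 ± 24.9 in those named for SCNT4c-KG, and *TDG* at 1713 ± 802 in SCNT4c and 55575 ± 5177 in SCNT4c-TDG. Both also rose in the other treated group, *KDM4A* to 775 ± 194 in SCNT4c-TDG (limma adjusted p = 0.00375) and *TDG* to 4366 ± 436 in SCNT4c-KG (limma adjusted p = 0.00195). Values are a normalized signal, which is reads divided by 1 factor per library. In pooled samples, fewer cells with a transcript and less RNA per cell cannot be told apart. The methods say in general that experiments were repeated, but not how the libraries of a group relate to those repeats, so p-values measure only the spread between these libraries.

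Of the 10 members, 5 had a mean of at least 10 and could be tested, namely *KMT2A*, *KMT2B*, *SETD1B*, *WDR5* and *KDM5A*. *ASH2L* and *KDM5B* were listed at 0 in all 15 libraries, as were 14.4% of all known genes. *KMT2C* had 2 reads in 1 SCNT4c-TDG library and was listed at 0 in the other 14. *KMT2D* had 28 reads in all and was above 0 in 7 of 15 libraries, with a highest value of 12.8 in SCNT4c-KG replicate 3. *SETD1A* had 82 reads in all and was above 0 in 10 of 15 libraries, with a highest value of 19.6 in SCNT4c-KG replicate 1. These 5 genes were not detectable or barely so in this table, in PFF as in embryos, and a value of 0 does not show that a transcript was absent.

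Per kilobase of exon, *WDR5* had the highest mean signal of the tested members in all 5 groups, but not in every SCNT4c library. In PFF the means were 274 ± 5.68 (SD, n = 3) for *WDR5*, 231 ± 14.96 for *SETD1B*, 57.0 ± 3.18 for *KDM5A*, 56.7 ± 4.30 for *KMT2B* and 36.1 ± 2.15 for *KMT2A*. In SCNT4c they were 66.0 ± 91.7 for *WDR5*, 36.8 ± 13.6 for *KDM5A*, 23.8 ± 10.3 for *SETD1B*, 15.1 ± 3.46 for *KMT2A* and 1.12 ± 0.331 for *KMT2B*. The order of *SETD1B* and *KDM5A* was therefore exchanged between the donor cells and the 4-cell clones, although their SCNT4c ranges overlapped. In SCNT8c *WDR5* was at 261 ± 80.3 and *KDM5A* at 129 ± 49.8, and no other member had a mean above 27.8 per kilobase. These values count the gene entry alone. Of the tested members, only *WDR5* and *SETD1B* had no unnamed assembled transcript at the same locus, to which reads could also have been assigned. The plot of values by library shows these 5 genes on their own scales.

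**Figure D1:**
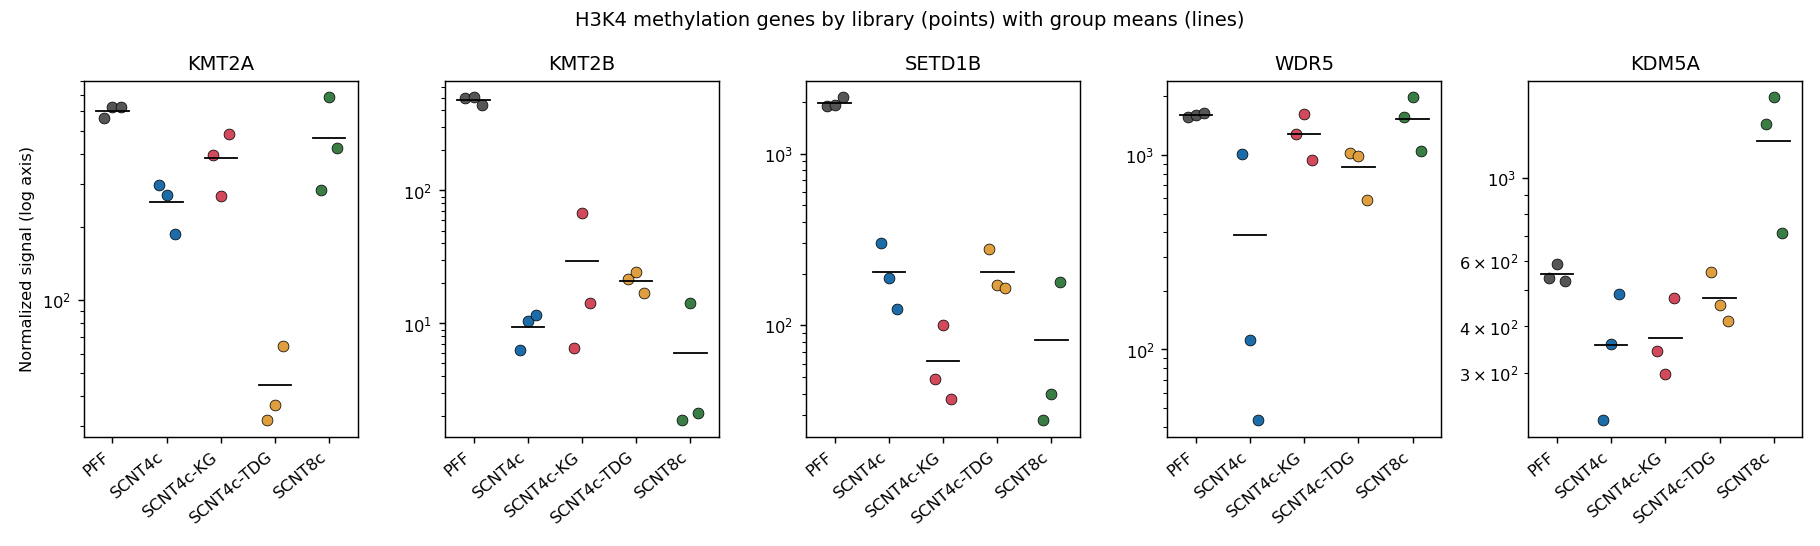
Normalized signal (log axis, a separate scale for each gene) of the 5 tested members in each of the 15 libraries (points, 3 per group) with the group mean (line). *KMT2A* is lowest in the 3 SCNT4c-TDG libraries (31.8 to 64.3), *WDR5* spreads from 43.2 to 1006 within SCNT4c, and *KDM5A* is highest in SCNT8c (714 to 1648).

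A member was called changed when its Benjamini-Hochberg adjusted p, over all features tested with limma, was under 0.05 and its fold change above 2. Between SCNT4c-KG and SCNT4c, 1 of the 5 tested members rose (*WDR5*) and 0 fell, where 37.2% of all features changed (17.6% higher, 19.6% lower). Between SCNT4c-TDG and SCNT4c, 1 rose (*WDR5*) and 1 fell (*KMT2A*), where 33.3% of features changed (15.7% higher, 17.6% lower). Between SCNT8c and SCNT4c, 2 rose (*WDR5* and *KDM5A*) and 0 fell, where 5.79% changed (2.62% higher, 3.16% lower). These 3 comparisons share the SCNT4c libraries. Between SCNT4c-TDG and SCNT4c-KG, 1 fell (*KMT2A*), where 16.2% changed (7.07% higher, 9.13% lower). Between SCNT4c and PFF, 4 were lower in SCNT4c (all but *KDM5A*), where 78.2% changed (39.7% higher, 38.5% lower). The median log2 fold change of the 5 members was 0.59, 0.48, 0.81, 0.13 and -3.23 in these comparisons, against -0.30, -0.26, -0.31, -0.02 and 0.07 over all features. Fold changes are on the log2(value + 1) scale, which understates the change of genes with low values.

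**Figure D2:**
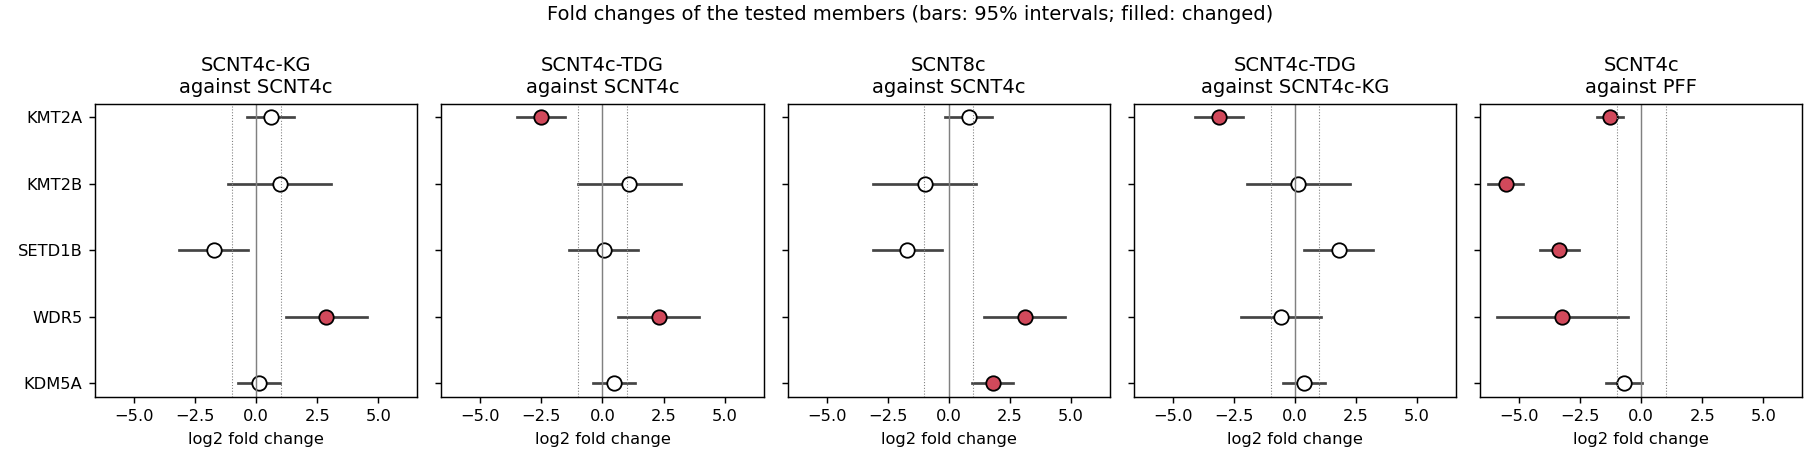
Log2 fold changes (points) with 95% intervals (bars) of the 5 tested members in the 5 comparisons, filled where the member changed; dotted lines mark a 2-fold change. *KMT2A* lies at -2.52 and -3.11 in the comparisons of SCNT4c-TDG with SCNT4c and with SCNT4c-KG, and 4 members lie left of 0 and are filled between SCNT4c and PFF.

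*KMT2A* (chromosome 9, 45743566 to 45828559, plus strand), a methyltransferase also known as the mixed-lineage leukemia gene, was low in the *TDG* embryos. Its signal was 299, 271 and 188 in SCNT4c libraries a, b and c, and 31.8, 36.8 and 64.3 in SCNT4c-TDG replicates 1 to 3. In SCNT4c-KG it was 397, 268 and 486, in SCNT8c 284, 687 and 424, and in PFF 562, 624 and 625. All 3 SCNT4c-TDG libraries were below every other library, while the SCNT4c, SCNT4c-KG and SCNT8c libraries overlapped. *KMT2A* fell by 2.52 on the log2 scale in SCNT4c-TDG against SCNT4c (SE 0.46, adjusted p = 0.000699), and this call held in all 17 alternatives tried. It was also lower in SCNT4c-TDG than in SCNT4c-KG (log2 fold change -3.11, SE 0.46, adjusted p = 0.000453), which held in all 18 alternatives. Against SCNT4c it was not shown to differ in SCNT4c-KG (0.59, 95% interval -0.39 to 1.56, adjusted p = 0.326) or SCNT8c (0.81, -0.17 to 1.79, adjusted p = 0.251). Its lower level in SCNT4c than in PFF (-1.28, SE 0.22, adjusted p = 0.00197) depended on the scaling. It was -0.48 with DESeq2 (adjusted p = 0.0614), -0.52 with edgeR (adjusted p = 0.0792), -0.24 with quantile normalization (adjusted p = 0.334) and -0.66 with equal totals (adjusted p = 0.0389, under a 2-fold change).

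*SETD1B* (chromosome 14, 30862155 to 30885592, minus strand), a catalytic subunit for promoter H3K4me3, was much lower in the clones than in the donor cells. It was at 1891, 1926 and 2129 in PFF and at 299.7, 189 and 125 in SCNT4c. It was at 49.0, 100.3 and 37.0 in SCNT4c-KG, at 279, 171 and 165 in SCNT4c-TDG and at 28.0, 39.9 and 179.6 in SCNT8c. The SCNT4c-KG libraries were all below the SCNT4c and SCNT4c-TDG libraries, whereas SCNT4c-TDG and SCNT8c overlapped with SCNT4c. *SETD1B* was lower in SCNT4c than in PFF (log2 fold change -3.36, SE 0.32, adjusted p = 0.000123), and this held in all 17 alternatives. The difference between SCNT4c-KG and SCNT4c (-1.74, 95% interval -3.16 to -0.32, adjusted p = 0.0509) did not pass the threshold, but it did without SCNT4c-KG replicate 2 (-2.15, adjusted p = 0.0411) and in 5 alternatives with all libraries, among them a fit of both groups alone (adjusted p = 0.0230). SCNT4c-TDG was not shown to differ from SCNT4c (0.05, -1.37 to 1.47, adjusted p = 0.961). Against SCNT4c-KG its value was 1.79 (adjusted p = 0.0807), and 4 alternatives called it, among them DESeq2 (1.85, adjusted p = 0.0279). In SCNT8c the value against SCNT4c was -1.69 (adjusted p = 0.115), and it was -2.49 without SCNT8c replicate 3 (adjusted p = 0.00319).

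*KMT2B* (chromosome 6, 45146863 to 45166854, plus strand), the paralog of *KMT2A* needed for H3K4me3 in mouse oocytes, was close to its detection limit in the embryos. It was at 497, 503 and 437 in PFF, from 367 to 407 reads. It was at 6.31, 10.5 and 11.6 in SCNT4c, at 6.53, 67.3 and 14.2 in SCNT4c-KG, at 21.7, 24.5 and 16.8 in SCNT4c-TDG and at 1.87, 14.1 and 2.11 in SCNT8c, from 2 to 53 reads. Every embryo library was below every PFF library. The SCNT4c-TDG libraries lay above those of SCNT4c, at 22 to 32 reads against 8 to 14, while SCNT4c-KG and SCNT8c overlapped with SCNT4c. How many of all features separate in this way was not counted. *KMT2B* was lower in SCNT4c than in PFF (log2 fold change -5.55, SE 0.29, adjusted p = 8.47e-06), which held in all 17 alternatives. No comparison between embryo groups passed the test, with log2 fold changes of 0.96 in SCNT4c-KG, 1.10 in SCNT4c-TDG and -0.99 in SCNT8c against SCNT4c (adjusted p 0.459, 0.411 and 0.526) and intervals of over 4 log2 units.

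*WDR5* (chromosome 1, 273560274 to 273577827, plus strand), the WD-repeat subunit that all 6 methyltransferase complexes share, varied most within SCNT4c. It was at 1006 in library a, 112 in library b and 43.2 in library c. It was at 1281, 1626 and 942 in SCNT4c-KG, at 1026, 991 and 585 in SCNT4c-TDG, at 1561, 1983 and 1044 in SCNT8c and at 1576, 1606 and 1642 in PFF. Library a lay within the range of SCNT4c-KG and SCNT4c-TDG, and libraries b and c lay below every library of the other groups. *WDR5* rose against SCNT4c in SCNT4c-KG (log2 fold change 2.87, SE 0.77, adjusted p = 0.00926), SCNT4c-TDG (2.30, SE 0.77, adjusted p = 0.0321) and SCNT8c (3.11, SE 0.77, adjusted p = 0.0355), and it was lower in SCNT4c than in PFF (-3.23, SE 1.10, adjusted p = 0.0323). Without SCNT4c library a these values were 4.15, 3.58, 4.39 and -4.51.

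Without SCNT4c library c the *WDR5* values were 1.89 for SCNT4c-KG, still called (adjusted p = 0.0479), 1.32 for SCNT4c-TDG (adjusted p = 0.161), 2.13 for SCNT8c (adjusted p = 0.0981) and -2.25 against PFF (adjusted p = 0.0867). Without library b the last 3 calls were lost as well (adjusted p 0.112, 0.118 and 0.112). The call in SCNT4c-TDG was also lost without SCNT4c-TDG replicate 1 or 2 (adjusted p 0.0969 and 0.0941), that in SCNT8c without SCNT8c replicate 1 or 2 (0.115 and 0.105), and that against PFF without any 1 PFF library (0.0778 to 0.0825). edgeR on the recovered reads made none of the 4 calls, with 1.96 in SCNT4c-KG (adjusted p = 0.0543), 1.55 in SCNT4c-TDG (0.121), 2.26 in SCNT8c (0.0872) and -1.36 against PFF (0.223). Other settings that lost a call were all features above 0 (0.0510 in SCNT4c-TDG, 0.0546 in SCNT8c), DESeq2 in SCNT4c-TDG (0.0824), a fit of both groups alone in SCNT8c (0.198), and quantile normalization (0.0995) and equal totals (0.0682) against PFF. For the comparison with PFF, DESeq2 gave no adjusted p for *WDR5*. SCNT4c-TDG was not shown to differ from SCNT4c-KG (-0.57, 95% interval -2.22 to 1.08, adjusted p = 0.669).

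*KDM5A* (chromosome 5, 67628791 to 67716143, minus strand), a JmjC-domain demethylase of H3K4me3 and H3K4me2, was highest in 8-cell clones. Its signal was 224, 360.02 and 488 in SCNT4c, and 1398, 1648 and 714 in SCNT8c. It was at 345, 298 and 477 in SCNT4c-KG, at 559, 458 and 415 in SCNT4c-TDG and at 541, 588 and 530.4 in PFF. The 3 SCNT8c libraries were above every library of the other groups, and the 4-cell groups overlapped one another. *KDM5A* rose in SCNT8c against SCNT4c (log2 fold change 1.79, SE 0.40, adjusted p = 0.0266). The call was lost without SCNT4c library a (1.49, adjusted p = 0.0935) or b (1.83, 0.0832), without SCNT8c replicate 1 (1.67, 0.101) or 2 (1.55, 0.0873) and in a fit of both groups alone (0.198). In that fit 0 of 18184 features were called, and over the left-out libraries the number of features called in this comparison went from 31 to 6133. No change against SCNT4c was shown in SCNT4c-KG (0.11, 95% interval -0.75 to 0.96, adjusted p = 0.855) or SCNT4c-TDG (0.48, -0.38 to 1.33, adjusted p = 0.379). Between SCNT4c and PFF the value was -0.70 (adjusted p = 0.0711), and its sign turned with DESeq2 (0.17), edgeR (0.13) and quantile normalization (0.30). The first bases of *KDM5A* overlap a lncRNA on the opposite strand, and the strand setting of the counting is not given in the sources used here.

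Over the 12 embryo libraries, the genes whose log2 signal was most like that of *KDM5A*, among 5468 genes with a mean of at least 100, were *MRPS9*, *NEK9* and *GTF2H2* (Pearson r 0.963, 0.962 and 0.958). For *SETD1B*, the methyltransferase with the highest mean over all 15 libraries (507, against 349.7 for *KMT2A*) but not over the 12 embryo libraries (139 against 286), they were *TDRD7*, *LGALS3* and *FRY* (0.938, 0.909 and 0.896). Among the 5 tested members themselves, r ranged from -0.57 (*KMT2A* with *SETD1B*) to 0.26 (*WDR5* with *KDM5A*). These libraries share groups and scaling, so the coefficients are descriptions.

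For all members but *WDR5* and *SETD1B*, the table also held assembled transcripts, which have no gene name, at the same loci. This covers the members listed at or near 0 and, of the tested members, *KMT2A* (2 transcripts), *KMT2B* (1) and *KDM5A* (1). The transcripts were added to the gene entry as a locus sum, which places reads at a locus but not on a gene. How reads that fell on both kinds of entry were counted is not given in the sources used here. With locus sums, 8 members could be tested, and the share of features changed was again 37.2% for SCNT4c-KG, 33.3% for SCNT4c-TDG and 5.79% for SCNT8c against SCNT4c, 16.2% for SCNT4c-TDG against SCNT4c-KG and 78.2% for SCNT4c against PFF.

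The *ASH2L* locus (gene on chromosome 15, 48386426 to 48417560, minus strand) had 1 assembled transcript. Its signal was 1106, 734 and 868 in SCNT4c, 119, 137 and 88.3 in SCNT4c-KG and 118.7, 105 and 89.5 in SCNT4c-TDG. It was 182.9 to 665.6 in SCNT8c and 19.1 to 23.8 in PFF. The treated libraries were all below the SCNT4c and SCNT8c libraries, and the PFF libraries were the lowest. The sum fell against SCNT4c in SCNT4c-KG (log2 fold change -2.97, SE 0.46, adjusted p = 0.000175) and SCNT4c-TDG (-3.09, SE 0.46, adjusted p = 0.000129) and was higher in SCNT4c than in PFF (5.36, SE 0.24, adjusted p = 4.74e-06), and these calls held in all 16 alternatives. In SCNT8c against SCNT4c it was at -1.37 (adjusted p = 0.0773), and at -1.85 without SCNT8c replicate 3 (adjusted p = 0.00220), which was a call. The table lists *STAR*, a cholesterol transporter gene, at the same merged locus (28.8 ± 6.50 in SCNT4c, 244 ± 111 in SCNT4c-KG, 63.0 ± 6.29 in SCNT4c-TDG), so the transcript cannot be assigned to *ASH2L*.

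The *KMT2C* locus (gene on chromosome 18, 4993213 to 5279668, plus strand) had 2 assembled transcripts and was highest in SCNT4c-KG. The sum was 24.5, 24.5 and 24.9 in SCNT4c, 144, 183 and 323 in SCNT4c-KG, 89.5, 39.9 and 119 in SCNT4c-TDG, 101.8, 64.0 and 8.45 in SCNT8c and 51.3, 72.6 and 111 in PFF. All SCNT4c-KG and SCNT4c-TDG libraries were above those of SCNT4c, and SCNT8c overlapped with SCNT4c. The sum rose in SCNT4c-KG against SCNT4c (log2 fold change 3.002, SE 0.79, adjusted p = 0.00799), which held in all 16 alternatives, and was at 1.58 in SCNT4c-TDG (adjusted p = 0.135), which DESeq2 (2.04, adjusted p = 0.0183) and a fit of both groups alone (adjusted p = 0.0292) called. Between SCNT4c-TDG and SCNT4c-KG it was at -1.43 (adjusted p = 0.243), called in a fit of both groups alone (0.0409). It was lower in SCNT4c than in PFF (-1.56, SE 0.34, adjusted p = 0.00541), but 4 alternatives lost the call, namely DESeq2 (-0.88, adjusted p = 0.0826), edgeR (-0.92, adjusted p = 0.0932), equal totals (-0.95, under a 2-fold change) and one fit of all 15 libraries (adjusted p = 0.0671). In SCNT8c the value against SCNT4c was 0.64 (adjusted p = 0.616), and it was 1.67 without SCNT8c replicate 3 (adjusted p = 0.0373). A pseudogene on the same strand lies within *KMT2C*.

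The *KDM5B* locus (gene on chromosome 10, 24739115 to 24831537, minus strand), whose gene encodes the other KDM5 demethylase examined, had 1 assembled transcript. The sum was 103, 80.4 and 128 in SCNT4c libraries a, b and c, 203 to 228 in SCNT4c-KG, 108 to 126 in SCNT4c-TDG, 155 to 224 in SCNT8c and 85.5 to 131 in PFF. The SCNT4c-KG and SCNT8c libraries were all above those of SCNT4c, while SCNT4c-TDG and PFF overlapped with SCNT4c. The difference between SCNT4c-KG and SCNT4c (log2 fold change 1.06, SE 0.41, adjusted p = 0.0506) did not pass the threshold, but did in 5 alternatives, namely DESeq2 (adjusted p = 0.00438), quantile normalization (0.0339), a minimum mean of 50 (0.0346), a fit of both groups alone (0.0423) and a pseudocount of 0.1 (0.0443). The other comparisons did not pass either, with 0.80 in SCNT8c and 0.16 in SCNT4c-TDG against SCNT4c and -0.07 for SCNT4c against PFF (adjusted p 0.206, 0.794 and 0.815), although DESeq2 called that in SCNT8c (1.03, adjusted p = 0.0373).

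**Figure D3:**
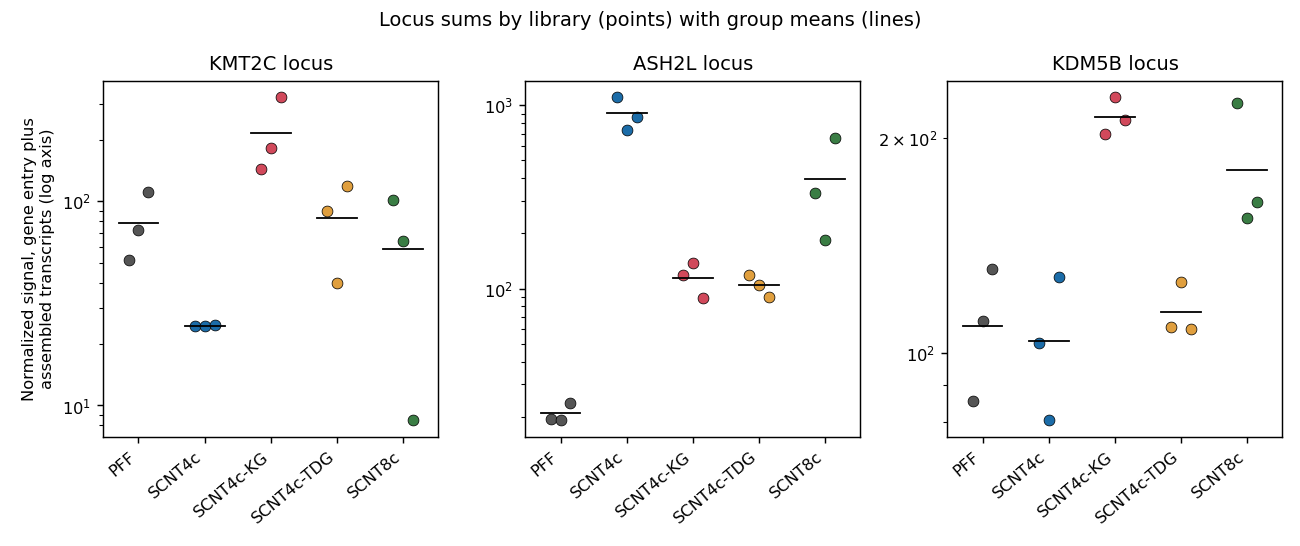
Sum of the gene entry and the assembled transcripts of the same locus (normalized signal, log axis, a separate scale for each locus) in each library (points, 3 per group) with the group mean (line). The *ASH2L* locus is highest in SCNT4c (734 to 1106), and the *KMT2C* and *KDM5B* loci have their highest means in SCNT4c-KG (217 and 214).

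The other genes of H3K4 methylation were described from lists of 38 genes, of which 36 were in the table and 23 could be tested between embryo groups. Against SCNT4c, 2 rose and 6 fell in SCNT4c-KG (34.8% changed, against 37.2% of all features), 2 rose and 6 fell in SCNT4c-TDG (34.8% against 33.3%), and 1 rose and 0 fell in SCNT8c (4.35% against 5.79%). These shares were near those of all features. Their median log2 fold changes were -0.42, 0.38 and -0.35, against -0.30, -0.26 and -0.31 over all features. Of the core subunits, *RBBP5* (7745 in SCNT4c) was at -0.42 in SCNT4c-KG and -0.48 in SCNT4c-TDG (adjusted p 0.373 and 0.312), and *DPY30* at -0.49 and -0.96 (adjusted p 0.216 and 0.0242, under a 2-fold change).

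Some genes of other roles fell in both treated groups, and the 2 comparisons share the SCNT4c libraries. How many of all features fell in both was not counted. *PSIP1*, a chromatin tether of the KMT2A complex, fell from 18232 in SCNT4c to 7021 in SCNT4c-KG (log2 fold change -1.35, adjusted p = 0.0176) and 5862 in SCNT4c-TDG (-1.61, adjusted p = 0.00725). *HCFC2*, another subunit, fell from 586 to 76.4 (-2.98, adjusted p = 6.61e-05) and 264 (-1.18, adjusted p = 0.0370). *KMT2E*, a SET protein without established methyltransferase activity, fell from 16679 to 3808 (-2.13, adjusted p = 0.000113) and 3585 (-2.21, adjusted p = 8.80e-05). The readers *ING3* and *PHF8*, the latter also a histone demethylase, fell in both as well (*ING3* -1.30 and -1.72; *PHF8* -1.24 and -2.01). *CXXC1*, which brings SETD1 complexes to unmethylated CpG, fell in SCNT4c-TDG from 1097 to 295 (-1.89, adjusted p = 0.000209) and was lower there than in SCNT4c-KG (-1.19, adjusted p = 0.0123).

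*KDM1B*, a flavin-dependent H3K4 demethylase needed for imprint setting in oocytes, rose from 5.43 in SCNT4c to 29.2 in SCNT4c-KG (2.27, adjusted p = 0.0352) and 140.3 in SCNT4c-TDG (4.46, adjusted p = 0.000583). *TAF3*, the TFIID subunit that reads H3K4me3, rose from 26.5 to 92.0 in SCNT4c-TDG (2.07, adjusted p = 0.0275) and to 191 in SCNT8c (3.07, adjusted p = 0.0254). In SCNT4c-KG the reader *ING5* rose from 2.23 to 41.8 (3.75, SE 1.06, adjusted p = 0.0119). Its mean was 10.6 in SCNT4c-TDG and 0.622 in SCNT8c. *ING5* therefore reached the minimum mean for a test only through SCNT4c-KG, and its fold change starts from a very low level. The methyltransferase *SETD7* fell in SCNT4c-KG from 231 to 81.2 (-1.75, adjusted p = 0.0172). Between SCNT4c-TDG and SCNT4c-KG, *SETD7* and *HCFC2* were higher in SCNT4c-TDG (2.14 and 1.795, adjusted p 0.0122 and 0.00778), so that 2 genes were higher and 1 lower (13.0% of those tested, against 16.2% of all features).

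**Figure D4:**
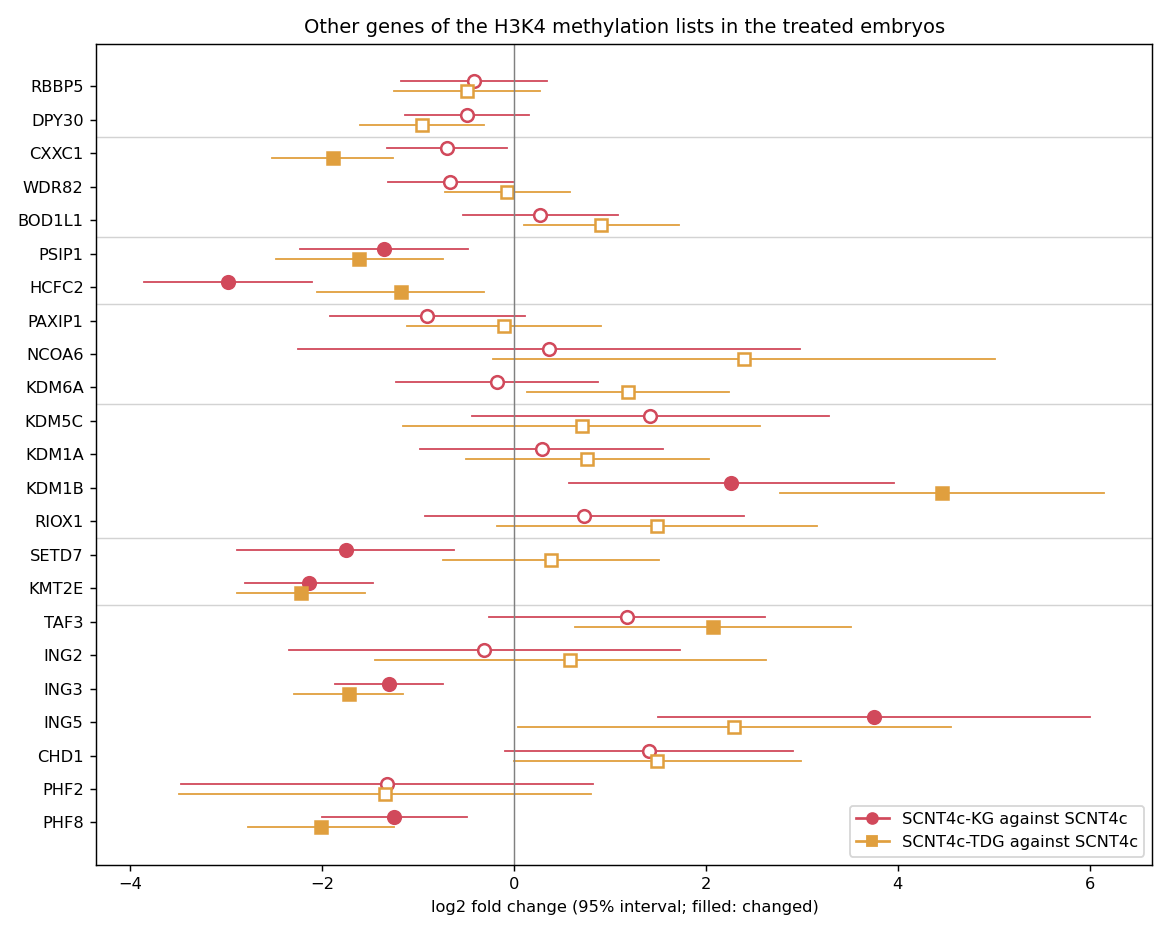
Log2 fold changes (symbols) with 95% intervals (bars) of the 23 tested genes of the H3K4 methylation lists, separated by role with grey lines, in SCNT4c-KG (circles) and SCNT4c-TDG (squares) against SCNT4c, filled where the gene changed. *PSIP1*, *HCFC2*, *KMT2E*, *ING3* and *PHF8* are filled left of 0 and *KDM1B* is filled right of 0 in both. Both comparisons use the same SCNT4c libraries.

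Between SCNT4c and PFF, 6 of 26 tested list genes were higher in SCNT4c and 13 lower (73.1% changed). Of all features, 78.2% changed (39.7% higher, 38.5% lower). The median log2 fold change of the list genes was -1.38, against 0.07 over all features. Some lower genes reached the minimum mean for a test only through PFF. Their SCNT4c means were 0 (*MEN1*, *PAGR1*), 0.845 (*SMYD2*), 2.23 (*ING5*), 5.43 (*KDM1B*) and 5.67 (*NCOA6*). The higher *CHD1* (3.27 in PFF, 18.6 in SCNT4c) reached it only through SCNT4c. The counts and the median of the list genes rest partly on these genes. How many of all features were admitted in this way was not counted. The core subunits *RBBP5* (1237 in PFF, 7745 in SCNT4c, log2 fold change 2.64, adjusted p = 5.78e-06) and *DPY30* (1216 and 2658, 1.10, adjusted p = 0.00238) were higher in SCNT4c, while *WDR5* of the same core was lower as given above. The demethylases *KDM5C* (2037 and 34.2, -6.03, adjusted p = 4.52e-05), *KDM1B* (126 and 5.43, -4.43, adjusted p = 0.000114) and *KDM1A* (177 and 37.6, -2.23, adjusted p = 0.000340) were lower. *MEN1*, which encodes menin of the KMT2A and KMT2B complexes, and *PAGR1* of the KMT2C and KMT2D complexes were at 43.4 and 75.8 in PFF and listed at 0 in SCNT4c. Of the list of *MEN1*, *HCFC2* was also lower (1802 and 586), but *PSIP1* was higher (1951 and 18232, 3.18, limma adjusted p = 2.56e-05). The reader *ING3* was higher as well (307 and 20101, 6.02, limma adjusted p = 4.98e-07). With other scalings the median of all features in this comparison moved from 0.07 to 0.67 (equal totals), 0.96 (edgeR) and 1.01 (DESeq2), and each difference from PFF is to be read against that median.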

How the data were processed

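RNA-seq of PFF and SCNT embryo pools was analysed from 1 deposited table. Per the methods and labels, the authors extracted RNA from 30 embryos per pool, amplified cDNA with a SMARTer kit, trimmed reads (Trimmomatic 0.39), aligned them to Sscrofa11.1 (STAR 2.5.3a), assembled transcripts (StringTie 2.1.2) and counted reads with HTSeq. The values deposited by the authors are a normalized signal, that is counts divided by a factor per library. Every value was a whole multiple of 1 read within 0.02 reads (100%), which gave the recovered reads. Of 43535 rows, 241 repeated gene IDs were removed.

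The members, gene lists and alternatives were chosen with earlier results of these data known. The main test was limma 3.58.1 (R 4.3.3) with an intensity trend, run on log2(value + 1) of features whose mean reached 10. The 12 embryo libraries were fitted together (18942 features), and SCNT4c and PFF in a fit of 6 libraries (19287 features). A feature was changed if its fold change exceeded 2 and its Benjamini-Hochberg adjusted p was below 0.05. The script was tested on simulated data. Named list genes are at most the 3 largest changes per list and comparison, and not all are named here. Alternatives were pseudocounts of 0.1 and 10, equal totals, quantile normalization, a minimum mean of 50, every feature above 0, no fold limit, edgeR 4.0.16 and DESeq2 1.42.0 on recovered reads, locus sums, other sets of libraries in the fit, a replicate block and each library left out. Where a group is left with 2 libraries, the spread comes from all groups of the fit. Positions and flanks are from the RefSeq annotation of Sscrofa11.1. Figures used Python 3.11.15 and matplotlib 3.10.9.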

Additional observations from a re-analysis of the deposited data

Results flagged for a closer look

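*KMT2A* differed between the treatments: its log2 fold change in SCNT4c-TDG against SCNT4c-KG was -3.11 (SE 0.46, limma adjusted p = 0.000453), with all 3 SCNT4c-TDG libraries (31.8 to 64.3) below all 3 SCNT4c-KG libraries (268 to 486). Against SCNT4c, the values were -2.52 in SCNT4c-TDG and 0.59 in SCNT4c-KG.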

How the results depend on the processing

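Of 667 values of single members and locus sums under an alternative, 584 kept their direction and side of the threshold, 36 lost the call, 22 gained it and 25 changed sign, none of the latter called in the main test. The number of members changed in SCNT4c-KG against SCNT4c was 1, became 0 with edgeR, 2 with a pseudocount of 10, a minimum mean of 50, quantile normalization, equal totals or a fit of both groups alone, and 3 with locus sums, and was 1 to 2 with a library left out. In SCNT4c-TDG against SCNT4c it was 2, became 1 with all features above 0, edgeR or DESeq2 and 3 with locus sums, and was 1 to 2 with a library left out. In SCNT8c against SCNT4c it was 2, became 1 with all features above 0 or edgeR and 0 in a fit of both groups alone, and was 0 to 3 with a library left out. In SCNT4c-TDG against SCNT4c-KG it was 1, became 2 with quantile normalization, equal totals, DESeq2 or a fit of both groups alone, and was 1 with any library left out. In SCNT4c against PFF it was 4, became 2 with quantile normalization, equal totals, edgeR or DESeq2 (which gave no adjusted p for *WDR5*) and 6 with locus sums, and was 3 to 4 with a library left out. The cause of these shifts was not tested.

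Signs that changed were those of log2 fold changes under a 2-fold change in the main test. These ran from -0.70 (*KDM5A* in SCNT4c against PFF) to 0.64 (the *KMT2C* locus in SCNT8c against SCNT4c). For *KDM5A* in SCNT4c against PFF the value became 0.17 (DESeq2), 0.13 (edgeR) and 0.30 (quantile), and in SCNT4c-KG against SCNT4c it was -0.20 to 0.37 with a library left out. For the *KDM5B* locus in SCNT4c against PFF it became 0.72 (DESeq2), 0.67 (edgeR), 0.078 (quantile) and 0.54 (equal totals), and -0.24 to 0.096 with a library left out; in SCNT4c-TDG it was -0.014 to 0.32. For the *ASH2L* locus in SCNT4c-TDG against SCNT4c-KG it became 0.045 (edgeR), 0.071 (quantile) and 0.24 (equal totals), and -0.30 to 0.015 with a library left out. For *KMT2B* in the same comparison it became -0.36 (DESeq2), -0.34 (edgeR), -0.15 (locus sum) and -0.025 (pseudocount of 10), and -0.57 to 1.02 with a library left out. For *SETD1B* in SCNT4c-TDG it was -0.26 to 0.37, and for the *KMT2C* locus in SCNT8c -0.047 to 1.67, with a library left out.

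The share of higher features among those changed moved from 45.3% to 79.5% (edgeR), 71.8% (DESeq2) and 57.0% (quantile) in SCNT8c against SCNT4c, and from 43.6% to 63.8% (equal totals) in SCNT4c-TDG against SCNT4c-KG. A pairing of the SCNT4c-KG, SCNT4c-TDG and SCNT8c libraries by replicate number was not shown (9 correlations of same-numbered libraries, -0.058 to 0.204, 1 of them over 0.1). These correlations cannot exclude a pairing, and SCNT4c and PFF were not checked. With the replicate block, in a fit without SCNT4c, *KMT2A* in SCNT4c-TDG against SCNT4c-KG was -3.11 (adjusted p = 0.00260), with 1 member and 2772 features changed against 3070; no such fit was made with SCNT4c or PFF, because the numbers of SCNT4c are in conflict and PFF was compared with SCNT4c alone. With 3 libraries per group, low signals such as *KMT2B* in embryos limit what can be detected.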

Other observations

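The merged locus of *KMT2A* in the table also lists *IFT46*, an intraflagellar transport gene that does not overlap *KMT2A* in the annotation. Its signal was 415 ± 20.9 (SD, n = 3) in PFF, 8.62 ± 9.76 in SCNT4c, 24.4 ± 20.9 in SCNT4c-KG, 104 ± 13.4 in SCNT4c-TDG and 16.4 ± 20.6 in SCNT8c, so that SCNT4c-TDG was the embryo group with the highest mean for *IFT46* and the lowest for *KMT2A*. *IFT46* was chosen after its values were seen.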
